A study of Mus musculus with 2 samples.

Results

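The nuclear-encoded subunits of the respiratory chain were examined in ribosome-protected fragments from mouse brain. Members were chosen by gene name alone, with at least 1 protein-coding transcript required, and grouped into complexes I to V by the prefix of the symbol. The rule gave 84 of 45578 genes: 37 for complex I (Nduf), 4 for complex II (Sdh), 8 for complex III (Uqcr), 18 for complex IV (Cox) and 17 for complex V (Atp5). Of these, 79 averaged 10 or more footprints over both libraries and entered the comparisons (called tested genes here). The other 5 (Cox6a2, Cox7a1, Cox7b2, Cox8b and Cox8c) were all in complex IV and are given by their counts.

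Polysomal footprints came from whole brain of 2 control animals killed on postnatal day 5, labelled as biological replicates of a single group (n = 2). Both animals had the genotype Smn+/-; SMN2tg/0, that is, 1 disrupted copy of the mouse Smn gene with a human SMN2 transgene, on a congenic FVB background of the line called the Taiwanese mouse. No other genotype was analysed here, so every value describes this control genotype. The libraries held 1866831 footprints in replicate 1 and 5261878 in replicate 2.

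The respiratory chain passes electrons from NADH and succinate to oxygen through complexes I to IV in the inner mitochondrial membrane, and complex V, the ATP synthase, uses the proton gradient that this builds. Most subunits are encoded in the nucleus, made on cytosolic ribosomes and imported, while a small core of membrane subunits is encoded in mitochondrial DNA. Neurons rely heavily on this pathway for ATP. Several complex IV subunits and subunit c of the ATP synthase are encoded by more than 1 gene, and some of the copies are known from particular tissues such as muscle or testis.

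The members shared short transcripts, a feature that the name rule did not use. For the protein-coding transcript with the most footprints, the median coding sequence was 144 codons, against 463 over the 13317 tested coding genes. The median 5′ untranslated length was 94 nucleotides against 174, and the median 3′ untranslated length was 153 nucleotides against 955. Lengths ranged from 53 codons for Atp5e, the epsilon subunit of the ATP synthase, to 728 codons for Ndufs1, an iron-sulphur subunit of complex I.

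Promoter sequence was the other shared feature examined. NRF1 is a transcription factor known for binding promoters of respiratory genes. Its motif was searched on both strands as the letters GCGC, then any base, then TGCGC, from 250 bases before to 50 bases after each RefSeq start site (assembly GRCm38.p6). A RefSeq promoter was found for 66 members, and 17 of them (25.8%) held the motif. Counted by single promoter, the share was 4.60% of all 32851 promoters in the table. Counted by gene, as for the members, it was 5.19% of all 27025 genes with a promoter. Among the 9944 tested coding genes that had a promoter it was 11.3%. The core of the site bound by ETS factors such as GABP, searched as CCGGAAG on both strands, was present in 16 of 66 members (24.2%). It was present in 8.86% of all promoters, in 9.93% of the 27025 genes and in 18.9% of the same 9944 genes. Neither motif contains the other. Of the 66 members, 29 held at least 1 of them and 4 held both. A match is a description of letters and not a measured binding site.

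These promoter stretches are shown because they carry the NRF1 letters upstream of the start in 1 member of each complex that has such a match. They come from the member with the highest footprint level per codon among those with an upstream match, and the motif is in capitals in the direction of the gene. In Ndufa5, Sdhd and Atp5h the match was on the opposite strand, so the capitals are the reverse complement of the letters searched. In Cox6a1 both strands matched.
Ndufa5, complex I, chr6:24527682-24527741, minus strand: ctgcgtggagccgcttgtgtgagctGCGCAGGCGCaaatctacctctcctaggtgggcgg
Sdhd, complex II, chr9:50603894-50603953, minus strand: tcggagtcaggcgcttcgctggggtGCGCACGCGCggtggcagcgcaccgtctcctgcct
Cox6a1, complex IV, chr5:115349086-115349145, minus strand: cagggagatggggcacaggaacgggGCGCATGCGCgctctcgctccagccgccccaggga
Atp5h, complex V, chr11:115420026-115420085, minus strand: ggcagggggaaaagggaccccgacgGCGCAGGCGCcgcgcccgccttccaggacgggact
The motif began 190 bases before the start site of the promoter used in Ndufa5, 79 in Sdhd, 162 in Cox6a1 and 141 in Atp5h. Ndufa5 has another RefSeq start, from which the same letters begin at -26. In complex III the member with the motif was Uqcrc1, where the matches lay after the start site.

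Together the 84 genes took 1.64% of all footprints in replicate 1, with an exact binomial 95% interval from 1.62 to 1.66. In replicate 2 they took 1.41%, with an interval from 1.40 to 1.42. This gives a mean of 1.52% ± 0.164 (SD, n = 2). Intervals of this kind cover counting error only, since PCR copies are not independent molecules. Complex V took the most, at 0.625% in replicate 1 and 0.527% in replicate 2, followed by complex I at 0.516% and 0.473%. Complex IV took 0.255% and 0.191%, complex III 0.160% and 0.144%, and complex II 0.0833% and 0.0715%. All 5 shares were higher in replicate 1, and their order was the same in both libraries. With the highest transcript per gene, complex V took a mean of 0.370% and complex I 0.472%, so that their order turned. The 13 subunits encoded in mitochondrial DNA went the other way, from 0.227% in replicate 1 to 0.341% in replicate 2.

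Because a long coding sequence holds more ribosomes, genes were compared by footprint level per codon, the CPM (a gene's count scaled to the library total) divided by the number of codons. The median over the 79 tested members was 1.04 CPM per codon in replicate 1 and 0.897 in replicate 2. The median over the tested coding genes was 0.0674 and 0.0756. Of the 79 members, 77 lay above the median of those genes and 67 above their 90th percentile. The members' order was similar in both libraries, with a Spearman correlation of 0.946 across the 79 genes, which are not independent replicates.

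The complexes differed in this level. Complex V had a median of 1.87 ± 0.206 CPM per codon (SD, n = 2) and complex IV a median of 1.70 ± 0.190. Complex III followed at 1.13 ± 0.154. Complex I had a median of 0.744 ± 0.122 and complex II a median of 0.662 ± 0.0952. Among tested members the order was the same in each replicate. The values of complexes IV and III, and of complexes III and I, did not overlap between replicates. The 5 genes under the count minimum, all in complex IV, are left out of these medians. With them, the middle complex IV genes in replicate 2 would be Cox7a2 (1.12) and Cox5a (0.897), beside a median of 1.03 for complex III. The place of complex IV above complex III in replicate 2 thus rests on leaving them out. Neighbours V and IV, and I and II, did not differ beyond the spread between replicates. The lead of complex V over IV depended on how transcripts were counted: with coding transcripts only it had 1.47 against 1.77, and taking each gene at its highest transcript 0.976 against 1.90. In the latter setting complex III, at 1.18, also lay above complex V, and complex II, at 0.910, above complex I, at 0.766.

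**Figure D1:**
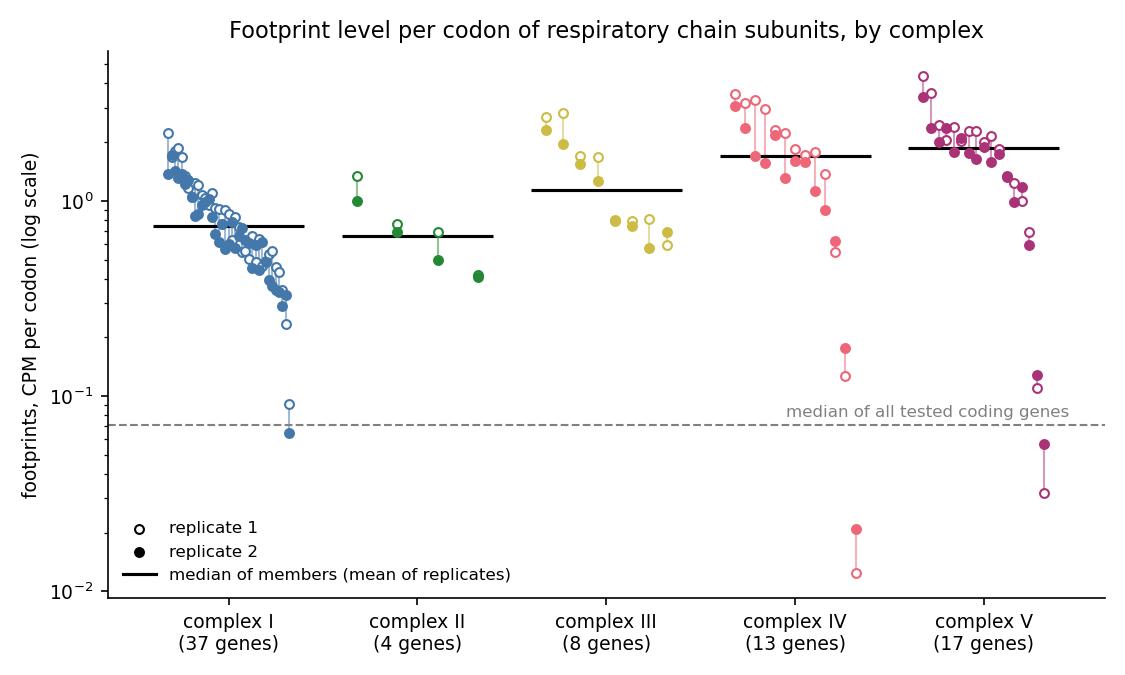
Footprint level per codon (CPM per codon, log scale) of the 79 tested members by complex, with open points for replicate 1, filled points for replicate 2, a thin line joining the replicates of a gene and a black bar at the complex median. Complexes IV and V sit highest, and 77 of 79 members lie above the dashed median of all tested coding genes.

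Coding length moved with this level. Across the 79 members the Spearman correlation of the level with the number of codons was -0.486. Over the 13317 tested coding genes it was -0.453, and both are descriptions across genes. The number of codons is also the divisor of the level, so a negative correlation can arise in part from the division. How large that part is was not tested. Within each range of length the members still lay mostly above other genes. Among genes of up to 100 codons, the 20 members had a median of 1.74 CPM per codon against 0.521 for all 301 such genes, and 18 of the 20 were above that value. Among genes of over 400 codons, the 9 members had a median of 0.591 against 0.0476 for 7772 genes, and all 9 were above it. The median length was 101 codons in complex III, 89 in IV, 162 in V, 145 in I and 226.5 in II. The part of length in the order of the complexes was not tested.

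**Figure D2:**
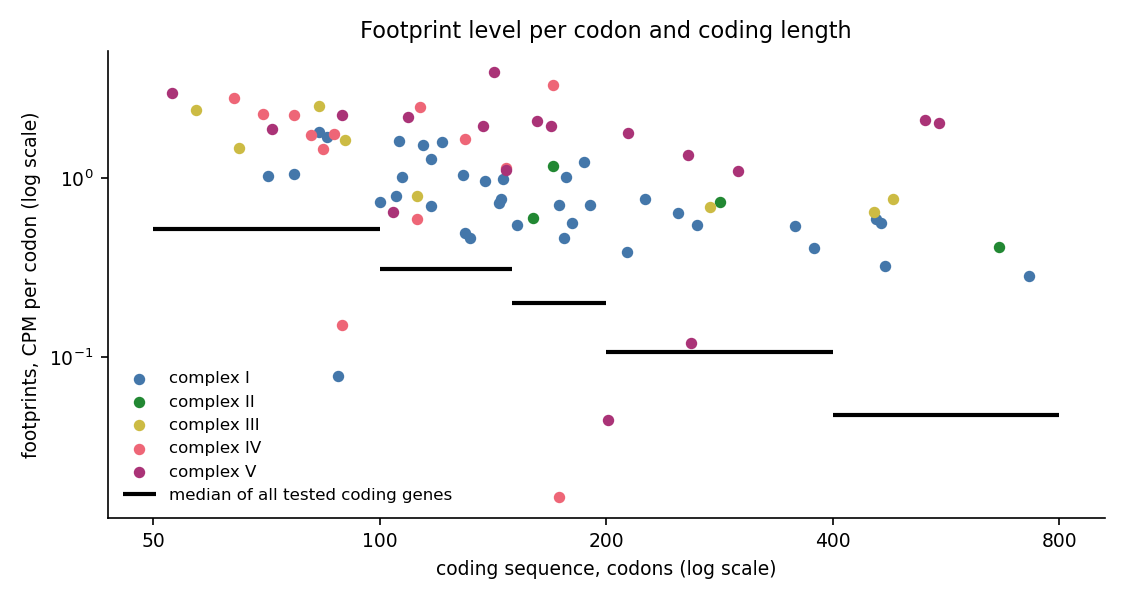
Mean footprint level per codon of the 79 tested members against coding length in codons (both axes log scale), coloured by complex, with black bars at the median of all tested coding genes in 5 ranges of length (the outer bars stand for up to 100 codons and over 400 codons). Levels, which have the number of codons as their divisor, fall with length among members and among all genes. Of the 20 members of up to 100 codons, 18 lie above the bar.

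Complex V was described by the parts of the enzyme. Its catalytic F1 head holds alpha and beta subunits in 3 copies each and gamma, delta and epsilon in 1 copy each, which is textbook background. Atp5a1 (alpha, ENSMUSG00000025428) had 2348 footprints in replicate 1 and 5145 in replicate 2, or 2.27 and 1.76 CPM per codon. Atp5b (beta) had 2378 and 4952 footprints, or 2.40 and 1.78 CPM per codon. The ratio of alpha to beta was 0.945 in replicate 1 and 0.994 in replicate 2. This near equality was lost with coding transcripts only, where alpha over gamma was 1.29 and beta over gamma 0.799.

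The single-copy F1 subunits did not share 1 level. Atp5c1 (gamma, the rotating shaft) had 557 and 1857 footprints, or 0.998 and 1.18 CPM per codon. Atp5d (delta) had 2.28 and 1.63 CPM per codon, and Atp5e (epsilon) had 3.58 and 2.35. Gamma was lowest in both libraries and epsilon, the shortest member of all, was highest, when all transcripts were summed and divided by coding length. Relative to gamma, alpha stood at 2.28 in replicate 1 and 1.495 in replicate 2, a mean of 1.89 ± 0.551 (SD, n = 2). Beta stood at 2.41 and 1.504, a mean of 1.96 ± 0.639. The mean of alpha and beta over the mean of gamma, delta and epsilon was 1.02 in replicate 1 and 1.03 in replicate 2. These ratios turned on the transcripts used. With coding transcripts only, as above for alpha and beta, delta over gamma was 1.81 and epsilon over gamma 1.13, so that beta was lowest and delta highest. With the highest transcript per gene, beta over gamma was 3.28. With transcript length, delta over gamma was 0.857, so that gamma was not the lowest.

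Subunit c forms the rotating ring in the membrane, and 3 genes encode the same mature protein behind different import sequences. Atp5g3 (ENSMUSG00000018770) had the highest mean level per codon of all 84 members when transcripts were summed, with 1161 and 2549 footprints, or 4.38 and 3.41 CPM per codon. Atp5g1 had 515 and 1358 footprints (2.01 and 1.88 CPM per codon), and Atp5g2 had 337 and 767 (1.23 and 0.992). When only the top transcript of a gene was counted, the highest member was instead Cox8a of complex IV, whose footprints all lie on 1 transcript. The order Atp5g3, Atp5g1, Atp5g2 held in both libraries. Atp5g3 supplied 57.5% of the summed level of the 3 genes in replicate 1 and 54.3% in replicate 2, Atp5g1 26.4% and 29.96%, and Atp5g2 16.1% and 15.8%. With coding transcripts only, the share of Atp5g3 was 43.6%. With transcript length in place of coding length the share of Atp5g1 was 5.47%, because the transcript used for it has a 3′ untranslated region of 4252 nucleotides. The genes encode the same mature protein, and any fragments that match more than 1 of them would make their split uncertain. How many fragments do so was not tested.

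The peripheral stalk holds the head still against the ring. Its 4 subunits had a median of 1.93 CPM per codon in replicate 1 and 1.92 in replicate 2. Atp5j (coupling factor 6) had 2.04 and 2.36 CPM per codon, Atp5h (subunit d) 2.02 and 2.11, Atp5o (OSCP) 1.84 and 1.73, and Atp5f1 (subunit b) 1.34 and 1.33. Their highest mean level was 1.64 times their lowest. Among the small membrane subunits, Atp5j2 had 2.46 and 2.01 CPM per codon and Atp5k 2.15 and 1.57.

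Atp5l (subunit g) was the lowest true subunit of complex V, with 134 and 327 footprints or 0.690 and 0.598 CPM per codon. The name rule also met 3 processed pseudogenes of it, which have no coding transcript and were not members. Atp5l2-ps held 101 and 240 footprints, Atp5l-ps1 49 and 154, and Atp5l-ps2 20 and 58. Fragments that match both the gene and a pseudogene can be counted on either, and how much of the low level of Atp5l this makes was not tested. Atp5k-ps2 likewise held 37 and 75 footprints beside 289 and 596 for Atp5k. Atp5s and Atp5sl carry the family name but are not subunits of the enzyme. They lay far below the rest, at 0.0320 and 0.0567 CPM per codon for Atp5s and 0.110 and 0.128 for Atp5sl.

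**Figure D3:**
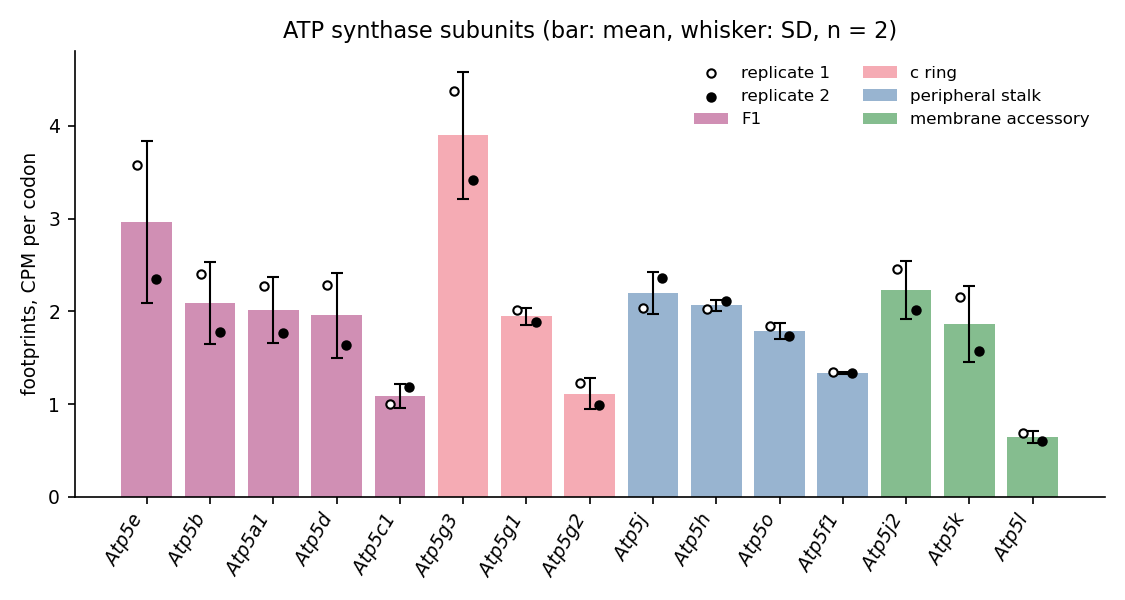
Footprint level per codon (CPM per codon) of the 15 ATP synthase subunit genes, grouped by part of the enzyme, with bars at the mean, whiskers of 1 SD (n = 2), open points for replicate 1 and filled points for replicate 2. Atp5g3 is highest, Atp5l lowest, and the median of the peripheral stalk genes is nearly the same in both replicates (1.93 and 1.92).

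Complex IV, cytochrome c oxidase, is where paralogues of 1 subunit compete for the same place in the enzyme. At each of the 6 complex IV positions with more than 1 gene, a single paralogue took over 90% of the mean level per codon. Cox7a2l, a relative of Cox7a2 by name, was not counted at the subunit 7A position. It had 0.550 and 0.626 CPM per codon beside 1.77 and 1.12 for Cox7a2, so counting it there would bring Cox7a2 below 90%. Cox4i1 (ENSMUSG00000031818), the general form of subunit 4, had 1117 and 2739 footprints, or 598 CPM (95% interval from 564 to 634) and 521 CPM (from 501 to 540). It was the highest member of complex IV per codon, at 3.52 and 3.06. Its paralogue Cox4i2, known from hypoxia and lung, had 4 and 19 footprints, or 2.14 CPM (from 0.584 to 5.49) and 3.61 CPM (from 2.17 to 5.64). It was the lowest tested member of all.

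The muscle forms were near the detection limit. Cox6a2, the heart and skeletal muscle form of subunit 6A, had 1 footprint in replicate 1 and 9 in replicate 2, beside 693 and 1013 for the general form Cox6a1. Cox7a1, also a muscle form, had 4 and 6 footprints beside 278 and 496 for Cox7a2. Cox8b, the muscle form of subunit 8, had 0 and 2, and Cox8c, known from testis, had 0 in both, beside 388 and 578 for Cox8a. With 3 counts as the upper limit for a count of 0, a gene without footprints could still reach 1.61 CPM in the first library and 0.570 CPM in the second. Of 8 skeletal and heart muscle marker genes, all had footprints; their summed level was 85.7 CPM in replicate 1 and 73.9 in replicate 2, of which Acta1, an actin with close relatives, made 62.6 ± 17.6. The other 7 were each below 5 CPM in mean level, with 3 and 4 footprints on Ckm, and their part in the counts of the muscle forms was not tested. In whole brain, fewer cells of a type and less RNA per cell cannot be told apart.

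Cox6b2, the form of subunit 6B known from testis, differed from this pattern by degree. It had 21 footprints in replicate 1 and 83 in replicate 2, beside 360 and 601 for Cox6b1. Its share of the counts of both genes was 5.51% in replicate 1 (exact 95% interval from 3.44 to 8.30). In replicate 2 it was 12.1% (from 9.78 to 14.8), so the counting intervals do not overlap. Its footprints were spread over 9 transcripts, and with the highest transcript per gene its share was 1.49%. Cox7b2 had 0 and 3 footprints beside 278 and 685 for Cox7b. RefSeq promoters were found for Cox6b2, Cox7a1, Cox7b2 and Cox8b, and none of the 4 held either motif.

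The remaining complex IV subunits have 1 gene each. Cox7c had 3.18 and 2.38 CPM per codon, Cox6c 2.31 and 2.17, Cox5b 1.71 and 1.58, and Cox5a, the lowest of the 10 main subunits, 1.37 and 0.897. Cox7a2l, which is known as a factor of supercomplexes between complexes III and IV, lay lower at 0.550 and 0.626. Ndufa4 carries a complex I name and is counted there by the rule, but its protein is known as a subunit of complex IV. It had 343 and 599 footprints, or 2.21 and 1.37 CPM per codon, which gave the highest mean level of any gene with a complex I name, 1.79 CPM per codon. In replicate 2 Ndufa3 and Ndufb2 lay above it. Its hypoxia-induced paralogue Ndufa4l2 had 15 and 30 footprints, 3.96% and 4.51% of the summed level of the pair per codon.

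**Figure D4:**
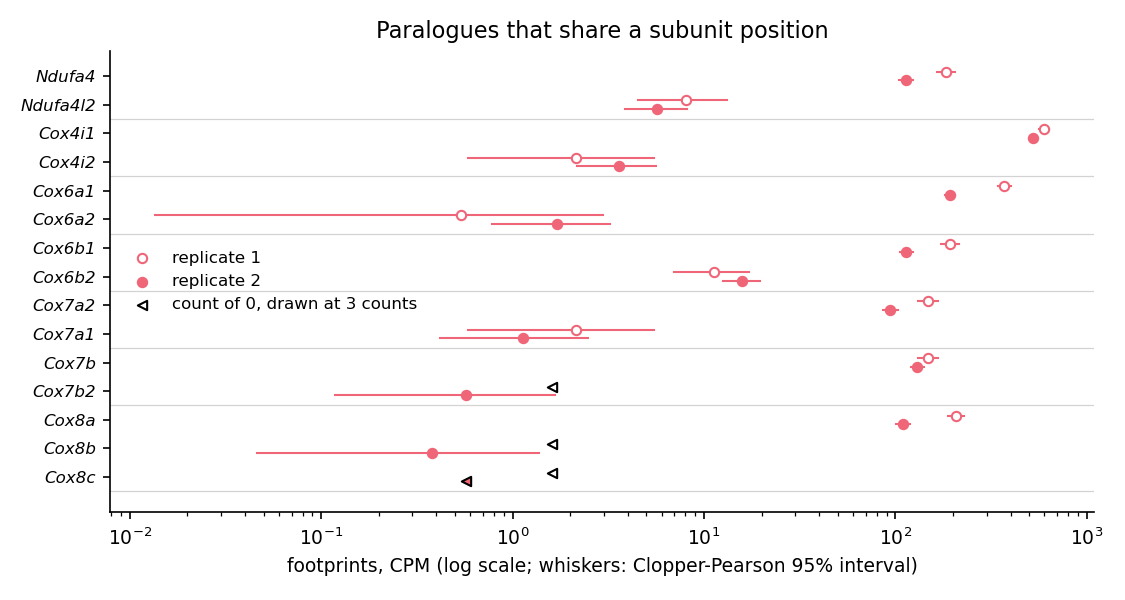
Footprint level (CPM, log scale) of the complex IV paralogues that share a subunit position and of Ndufa4 with Ndufa4l2, grouped by grey lines, with open points for replicate 1, filled points for replicate 2, whiskers for the Clopper-Pearson 95% interval and triangles where the count was 0, drawn at 3 counts. In each group drawn, 1 gene lies at 94.3 CPM or more in both libraries and the others at 15.8 CPM or less. Cox7a2l is not drawn.

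Complex I, the NADH dehydrogenase, has 7 nuclear core subunits conserved from bacteria, which carry the flavin and the iron-sulphur clusters, and many accessory subunits. The core subunits lay between 0.283 and 0.760 CPM per codon in mean level. Ndufs7, an iron-sulphur subunit, had 0.757 in replicate 1 and 0.763 in replicate 2. Ndufv2 had 0.546 and 0.724, and Ndufv1, which binds the flavin, 0.551 and 0.630. Ndufs3, in the peripheral arm, had 0.487 and 0.597. Ndufs8 had 0.433 and 0.343, and Ndufs1, the longest member, 0.235 and 0.331. The highest core subunit had 2.69 times the mean level of the lowest. Scaled for library composition, 5 of the 7 had a log2 ratio of replicate 2 over replicate 1 above 0, beside a median of 0.01 over all genes. As given further on, this ratio moved with the number of annotated transcripts. Ndufs8 has 1, and the other core subunits have from 4 (Ndufv2) to 13 (Ndufs1). In the test given further on, 2 of the 7 were called higher in replicate 2 and 1, Ndufs8, was called lower (log2 ratio -0.46), where 5.95% of all genes were called higher and 11.5% lower.

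The 28 accessory subunits had a median of 0.915 CPM per codon in replicate 1 and 0.725 in replicate 2. The groups differ in length, with a median of 135 codons for the accessory subunits and 264 for the core. Ndufa3 (1.68 and 1.71 CPM per codon) had the highest mean level of the accessory subunits, though Ndufc2 and Ndufb2 lay above it in replicate 1. Ndufv3 (0.349 and 0.291) had the lowest mean level. Ndufv3 has 3 coding forms, a long one of 469 codons and shorter ones of 105 and 87 codons. The long form held 102 and 248 footprints, the form of 105 codons 78 and 188, and the form of 87 codons 49 and 109. Dividing the gene's level by 105 codons gives 1.56 and 1.30 CPM per codon, so the place of Ndufv3 rests on the form chosen.

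Complex II, succinate dehydrogenase, is the 1 complex with no mitochondrially encoded subunit. Sdha, the flavoprotein, had 520 and 1418 footprints, or 0.419 and 0.405 CPM per codon. Sdhb, which holds the iron-sulphur clusters, had 0.765 and 0.693. The membrane anchors Sdhc and Sdhd had 1.34 and 1.00, and 0.693 and 0.495. The 4 subunits occur in equal numbers in the enzyme, while the highest mean level per codon was 2.84 times the lowest. With coding transcripts only it was 4.47 times the lowest.

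Complex III, the cytochrome bc1 complex, fell into 2 ranges when all transcripts were summed. In that sum its larger subunits were alike. The core proteins Uqcrc1 and Uqcrc2 had 0.786 and 0.742, and 0.592 and 0.697 CPM per codon, and the Rieske iron-sulphur protein Uqcrfs1 had 0.804 and 0.572. Cytochrome c1 (Cyc1), a catalytic subunit outside the name rule, had 0.687 and 0.478. The accessory subunits Uqcrq (2.69 and 2.31), Uqcr11 (2.81 and 1.95), Uqcrh (1.70 and 1.55) and Uqcr10 (1.68 and 1.26) were all higher in both libraries than any of these, and all have at most 90 codons. Uqcrb, of 112 codons, had 0.799 and 0.787. These ranges depended on the transcripts used. The highest mean level in complex III was 3.88 times the lowest, and 6.81 times with coding transcripts only. The coding transcript of Uqcrc2 held 47.4% and 42.4% of its footprints, while that of Uqcrfs1 held 100% in both libraries, so with coding transcripts only the larger subunits were less alike.

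Proteins that help to build the complexes had lower levels than the subunits. Of 47 assembly factors listed, 46 were in the table and 45 passed the minimum count, with a median of 0.117 CPM per codon in replicate 1 and 0.135 in replicate 2. Cox14, a small factor of complex IV assembly, had the highest mean level at 1.00 CPM per codon, and Uqcc2, a complex III factor, had 0.672. Cytochrome c (Cycs), the mobile carrier between complexes III and IV, had 0.793 and 0.862 CPM per codon, and Atpif1, the inhibitor of ATP hydrolysis by complex V, had 2.46 and 1.72. Transcriptional regulators of the pathway were low beside the subunits: the 8 listed genes had a median of 0.0465 and 0.0681. The median over the tested coding genes was 0.0674 and 0.0756. Ppargc1a, the coactivator of mitochondrial biogenesis, had 49 and 201 footprints, Nrf1 had 40 and 212, and Tfam, which packages mitochondrial DNA, had 67 and 216.

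The replicates were compared by an exact binomial test for each gene (two-sided), on counts scaled by TMM (trimmed mean of M values) and with adjustment over all 16427 tested genes. It compares 2 libraries of the same group, 1 animal each, not conditions. Its p-values cover counting error only, treat footprints as independent molecules and leave out the spread between animals. Of the 79 members, 50 were called at an adjusted p under 0.05, 47 lower and 3 higher in replicate 2. Over all genes 17.4% were called, 11.5% lower and 5.95% higher. Counts were high for the members, and calls are more frequent at high counts: among genes with a mean count of 200 to 500, 32.05% of all genes and 22 of 29 members were called, and at 1000 or more, 65.7% of all genes and 7 of 11 members. The median log2 ratio of replicate 2 over replicate 1 was -0.34 for the members and 0.01 for all genes. With library totals in place of TMM it was -0.22 for the members and 0.13 for all genes.

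The lowest ratios were in complex IV. Cox6a1 had 371 CPM in replicate 1 and 193 in replicate 2, a log2 ratio of -1.07 (adjusted p = 9.06e-46, exact binomial test). Cox8a had 208 and 110 CPM, a log2 ratio of -1.04 (adjusted p = 1.93e-24, exact binomial test). The 3 members called higher were all in complex I: Ndufs1 with 171 and 241 CPM (log2 ratio 0.37), Ndufv2 with 136 and 180 (0.28) and Ndufa10 with 166 and 219 (0.28). Of the assembly factors, 4 of 45 were called, all lower, where 11.5% of all genes were called lower. Of the 8 regulators 2 were called, both higher, where 5.95% of all genes were called higher.

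The difference between the replicates moved with the number of transcripts annotated for a gene. The 21 members with 1 transcript had a median log2 ratio of -0.65, and 18 of them were called lower; of all genes with 1 transcript 17.4% were called in either direction. The 17 members with 2 to 3 transcripts had a median of -0.54, the 25 with 4 to 6 a median of -0.24, and the 16 with 7 or more a median of 0.04. Over all genes the same ranges had medians of -0.14, -0.07, 0.06 and 0.18. Spearman's rho of the ratio with the number of transcripts was 0.667 across the 79 members and 0.286 across all 16427 genes, as descriptions. Footprint density moved with it too: when the trend of the ratio with density over all genes was removed, 36 members were called, 20 lower and 16 higher, and their median log2 ratio was -0.03. In that setting 16.01% of all genes were called. How duplicate fragments and fragments shared by transcripts were treated is not given in the sources used here, and their part in these ratios was not tested.

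**Figure D5:**
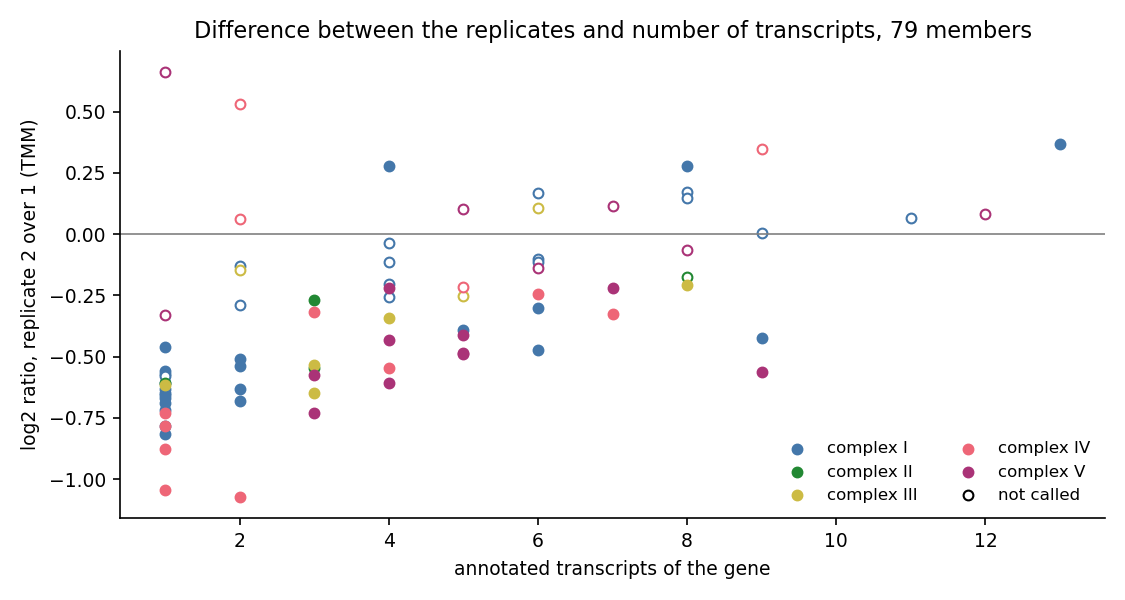
Log2 ratio of replicate 2 over replicate 1 (TMM scaling) of the 79 tested members against the number of annotated transcripts of the gene, coloured by complex, with filled points for members called by the exact binomial test and open points for those not called. Members with 1 transcript have a median of -0.65 and those with 7 or more a median of 0.04, with wide spread in each.

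Footprints of the members lay on non-coding transcript classes more often than those of the library as a whole. Protein-coding transcripts held 67.4% ± 1.36 of the members' footprints (SD, n = 2), against 75.5% ± 1.09 of all footprints. Retained introns held 16.2% ± 0.543 against 9.36% ± 0.387, and processed transcripts 11.8% ± 0.463 against 5.59% ± 0.271. Each gap was larger than the spread between replicates. Such transcripts share exons with the coding ones, so the classes do not say where translation took place.

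Markers of several cell types were also called between the libraries, and their part in the members' ratios was not tested. Of all genes, 32.05% were called at a mean count of 200 to 500 and 65.7% at 1000 or more. Whether any marker list was called more often than genes of like count was not tested. All 6 neuronal markers had footprints, with a summed level of 4933 CPM in replicate 1 and 3880 in replicate 2. Of the 6, 4 were called lower in replicate 2 (median log2 ratio -0.38). These 4 (Snap25, Syt1, Tubb3 and Stmn2) had mean counts over 1000, where 54.97% of all genes were called lower. Map2, with 2655 and 7835 footprints, was also in that range and was not called. Rbfox3, with 321 and 954 footprints, lay below it and was not called either. The 5 astrocyte markers summed to 1483 and 1450 CPM, and 1 of them, Aldoc, was called lower. The 5 oligodendrocyte lineage markers summed to 675 and 951 CPM, and of these 3 were called higher and 1 lower. The 4 red cell markers summed to 1501 and 1058 CPM, and 2 of them were called lower. The 3 liver markers Alb, Apoa2 and Fgb had no footprint in either library. Of the 2 brown fat markers, Ucp1 had none and Cidea had 12 and 42 footprints.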

How the data were processed

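Polysomes from a sucrose gradient were treated with RNase I and fragments of 25 to 35 nucleotides sequenced, per the labels' protocols. Footprint counts for each transcript are the authors' own, deposited without normalization beside annotated lengths in nucleotides. Per the submitters' processing notes, Trimmomatic 0.36, Bowtie2 2.2.6, SAMtools and build GRCm38.p4 were used; the settings are not given in the sources used here. Transcript counts were summed per gene. Levels used library totals; the replicate comparison used TMM factors (edgeR 4.0.16) of 0.957 and 1.04 and a prior of 0.5 CPM, with Benjamini-Hochberg adjustment (scipy 1.17.1). A quasi-likelihood test needs 2 groups and was not run. On simulated counts for the replicate comparison over 16427 genes, the test found 67% of 2-fold rises and 50% of 2-fold falls, with 5 false calls. These counts were drawn with Poisson counting error only, as the test assumes. They held no spread between animals and no PCR copies, so the false calls in real libraries cannot be read from them. The members, lists and tests were chosen with earlier results of these data known. Values per replicate were given for the 2 highest and 2 lowest members of each complex, paralogues, core and F1 subunits, complex II and the most extreme called members. The alternatives were DESeq2 1.42.0 size factors, library totals, other count minimums, a prior of 5 CPM, the density trend removed, the highest transcript, coding transcripts only, other lengths and each replicate left out. RefSeq promoters (GRCm38.p6) were matched by symbol for 66 of 84 members. No coordinates other than those of promoters are given. The values of 1 core subunit of complex I are not reported here.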

Additional observations from a re-analysis of the deposited data

How the results depend on the processing

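With library totals, 8 members were called higher in replicate 2 in place of 3. With the density trend removed, 20 were called lower and 16 higher, with 16.01% of all genes called. With the highest transcript per gene, 31 were called, 31 lower and 0 higher (4 higher at an unadjusted p under 0.05). The median log2 ratio of the members kept its sign in all settings, from -0.40 with coding transcripts only to -0.03 with the density trend removed. With the highest transcript per gene the members' share of footprints was 1.31%, and the median CPM per codon was 0.910 for complex II, 1.90 for complex IV and 0.976 for complex V. With coding transcripts only it was 0.954 for complex III and 1.47 for complex V. With transcript length in place of coding length the medians were 0.530 for all members, 0.431 for complex I, 0.253 for II, 0.567 for III, 0.739 for IV and 0.853 for V, lower by construction since transcripts are longer. Alpha and beta over gamma, delta and epsilon was 1.06 with the highest transcript, 0.789 with coding transcripts only and 1.74 with transcript length. Causes other than construction were not tested. Without replicate 1 the members' share was 1.41% and without replicate 2 it was 1.64%. No paired analysis was possible because there is a single group. Members under a mean count of 10 are limited by depth.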
